A study of Mus musculus with 4 samples.

Results

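The interferon response genes are 40 mouse genes named for their known induction by type I or type II interferon, given as a list of symbols whose rule uses no measured value. The list was chosen with earlier results of these data known. Of the 40 listed genes, 38 had at least 1 probe that could be named through its RefSeq accession, and 33 were bright enough to be tested among the 20045 genes tested in all. The list holds 4 transcription factors, 5 genes of RNA sensing and the kinase PKR, 21 type I effectors, 7 GTPases and 3 Ifitm genes. The brightest probe stood for a gene, and 12 members had more than 1 probe among their 50 probes. Mx1 and Mx2, the dynamin-like antiviral GTPases, had no probe named here and were not analysed here.

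The series compared mouse transformed cell lines on 4 two-colour arrays, each line an outgrowth of fetal liver cells transformed by p185 BCR-ABL1, a fusion tyrosine kinase. R/R clones 1, 2 and 3 and an R/R pool were homozygous for Cdk4 R24C and Cdk6 R31C, knock-in substitutions known to stop INK4 inhibitors from binding these kinases. They were set against 1 WT pool of lines with wild-type Cdk4 and Cdk6, transformed with the same oncogene, and all lines were on a mixed background of C57BL/6J and CD-1. Each array set 1 R/R RNA against the WT pool, with R/R in Cy5 for the clones and in Cy3 for the R/R pool. Every line carried the oncogene, each clone is a single immortalised line on a single array, and what either pool held is not stated. Clones 1 and 2 share the first number of their clone identifier, and whether they share an embryo is not stated. No interferon or other agent is named in the labels, and RNA came from asynchronous cultures. Since the same WT pool stood on every array, the p-values leave out the spread of WT lines. They rest on the spread between clones, which limma draws toward that of all genes tested.

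Interferons are secreted proteins that signal through JAK kinases and STAT proteins. Type I interferon drives a complex that holds STAT2 and IRF9 onto the interferon-stimulated response element (ISRE), and type II interferon acts through the gamma-activated sequence (GAS). The genes induced include sensors of viral RNA, enzymes and binding proteins that block viral growth, and GTPases that act on the membranes around intracellular microbes. Many are also transcribed at a low level without added interferon.

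The promoters of many members hold these elements. RefSeq promoters (GRCm38.p6, windows of 300 bases that begin upstream of each start) were found for 31 of the 40 members, 37 promoters in all. The ISRE core, which is GAAA, any 2 bases and GAAA on either strand, occurred in 17 of the 37 (45.9%), against 3.44% of all 32851 promoters in the table. The GAS letters, TTCNNNGAA, which read alike on both strands, occurred in 9 (24.3%), against 8.3% of all. Letters of both motifs overlapped in Bst2 and Ifitm3. The windows below are the stretches around the match in 4 members with repeated ISRE cores, in Gbp2 with a single one, and in Irf1 and Plscr1 with a GAS match, all upstream of the start and printed on the gene's own strand, 5′ to 3′, with the matched letters in capitals except in Ifit1. The Ifit1 window marks 1 of its 2 cores. The other core begins in the last letters of that window, printed in lower case, and is cut off.
Isg15 (chr4:156200863-156200908, minus strand): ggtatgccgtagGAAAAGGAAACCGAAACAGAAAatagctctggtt
Oas1a (chr5:120907526-120907557, minus strand): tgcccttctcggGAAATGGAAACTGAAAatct
Irgm1 (chr11:48871423-48871462, minus strand): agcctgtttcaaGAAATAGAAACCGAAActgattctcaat
Ifit1 (chr19:34640773-34640806, plus strand): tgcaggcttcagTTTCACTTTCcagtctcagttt
Gbp2 (chr3:142620592-142620625, plus strand): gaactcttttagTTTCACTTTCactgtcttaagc
Irf1 (chr11:53769912-53769944, plus strand): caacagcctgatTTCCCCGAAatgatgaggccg
Plscr1 (chr9:92250092-92250124, plus strand): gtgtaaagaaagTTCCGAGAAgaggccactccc
In Ifit1 and Gbp2 the core lies on the opposite strand, so the capitals are its reverse complement. A match is a description of letters, and no match says only that these letters are not in the window.

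In each channel 42.8% to 53.4% of the spots were well above background, the median SD of replicate spots was 0.078 to 0.092 on the log2 scale, and the number of arrays limits the precision. All 4 arrays lay on 1 slide, so no batch could be tested. In the limma fit 30 genes were called higher and 75 lower in R/R at an adjusted p under 0.05, 0.524% of the 20045 genes tested. The labels name no blood lineage for the lines, and 9 of 9 B-lineage markers were well above background in all R/R and all WT channels, at fitted values of -0.26 to 0.42. Markers of other cells that could bring interferon genes were scarcer. Of 8 macrophage and dendritic markers with a probe, 4 were well above background in all R/R channels and 5 in all WT channels, with Itgax in none, and the tested ones had fitted values of -0.38 to 0.11. Of 7 T and NK markers, Cd3e and Klrb1c were above background in all channels. Cd3d, Cd8a, Ncr1 and Gzmb, and all 5 erythroid and 4 hepatocyte markers, were above background in no channel. In whole cultures, fewer expressing cells and less RNA per cell cannot be told apart.

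No interferon response gene passed the test in either direction. Of the 33 members tested, 0 were called higher and 0 lower in R/R by limma at an adjusted p under 0.05, against 0.15% of all genes called higher and 0.374% called lower. At an unadjusted p under 0.05 there were 5 higher and 0 lower, against 7.27% and 8.1% of all genes. The 5 were Xaf1, Ifih1, Cmpk2, Isg20 and Oas1a. All values below are log2 ratios of R/R over WT, so that 1 is a doubling in R/R, and the fitted value gives equal weight to the clone mean and to the pool. Fitted values lay above 0 in 26 members and below 0 in 7, where 46.4% of all genes lay above 0, and their median was 0.12 against -0.02 over all genes tested. By array the median of the members was 0.05 in clone 1, 0.18 in clone 2, 0.08 in clone 3 and 0.17 in the pool. With the clones alone 21 members lay above 0. In the pool 27 did, where 9257 of all 20045 genes lay above 0. The pool array was the only dye-swapped one, so pool and dye cannot be told apart. Members with ratios above 0 on all 4 arrays numbered 8 of 33 (24.2%), against 14.6% of all genes, and 0 were below 0 on all 4, against 16.2%. The 8 were Irf1, Ifih1, Dhx58, Eif2ak2, Oas1a, Bst2, Cmpk2 and Xaf1. Fitted values of 31 members lay within 0.5 of 0, and the smallest fitted size among the called genes of the whole table was 0.74. A call missed is not a value shown to be equal, and the 95% intervals of the members were between 0.43 and 4.12 wide.

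The count of calls depended on how the R/R pool was treated. Without a dye term, which counts the dye-swapped pool array as another replicate, 3 members were called higher, Xaf1 (limma adjusted p = 0.0167), Ifih1 (limma adjusted p = 0.0388) and Cmpk2 (limma adjusted p = 0.0479). In that fit 2.44% of all genes were called higher, so the background rose as well.

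**Figure D1:**
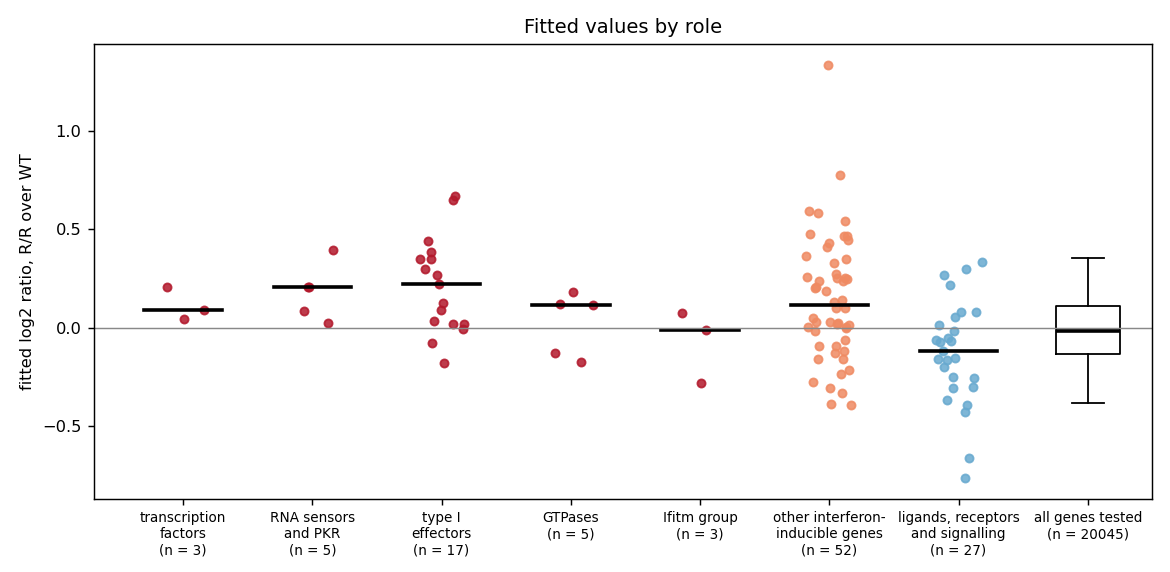
Fitted log2 ratios (vertical axis, R/R over WT) of the members tested in each role, beside 2 other interferon lists and all 20045 genes. Points are genes, thick lines medians, and the box gives the quartiles of all genes with whiskers at the 5th and 95th percentiles; the medians of the roles run from -0.01 (Ifitm) to 0.22 (effectors), an order that changes when a clone is left out (effectors 0.13 and Ifitm 0.14 without clone 3), and that of the ligand, receptor and signalling genes is -0.12.

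The 3 transcription factors tested had fitted values above 0, with a median of 0.09 (0.054 without clone 2). For Stat2 this sign came from the pool, as its clone mean was -0.08. Stat2, a subunit of the type I complex, stood at -0.19 in clone 1, 0.21 in clone 2, -0.25 in clone 3 and 0.17 in the pool, and its fitted value was 0.05 ± 0.12 (SE; limma adjusted p = 0.881). Irf9, the DNA-binding subunit of that complex, stood at -0.07, 0.24 and 0.12 in clones 1, 2 and 3 and at 0.08 in the pool, with a fitted value of 0.09 ± 0.10. Irf1, an interferon gamma target that itself activates ISRE genes, stood at 0.17, 0.19 and 0.22 in the clones and 0.22 in the pool, with a fitted value of 0.20 ± 0.09 (limma adjusted p = 0.340). In channel levels on the normalised log2 scale, Irf1 read 10.32, 10.28, 10.34 and 10.28 in the R/R channels of clones 1, 2, 3 and the pool, and 10.15, 10.09, 10.12 and 10.06 in the WT channels of the same arrays. The 2 sets of channels did not overlap, but the WT channels are repeated readings of 1 pool and leave out the spread of WT lines. The share of all genes without overlap was not counted. The range over the clones, 0.05, was narrower than that of 98.3% of all genes tested. A second Irf1 probe was not well above background in any channel. Irf7, the amplifier of interferon alpha production, exceeded background clearly in clone 3 alone of the R/R channels and in 0 of 4 WT channels, and was not tested.

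All 5 RNA sensing genes had fitted values above 0, with a median of 0.21, a median range over the clones of 0.23, and 3 of 5 above 0 on every array. For Ddx58 and Trim25 the sign came from the pool, as their clone means were -0.086 and -0.0063. Ifih1 encodes MDA5, which detects long double-stranded RNA. Its channel levels were 6.82, 6.91, 7.02 and 6.88 in R/R clones 1, 2, 3 and the pool, against 6.50, 6.61, 6.42 and 6.49 in WT on the same arrays. The channels did not overlap, though those of WT are repeated readings of 1 pool. Those of Dhx58 and Eif2ak2 did not overlap either, and the share of all genes without overlap was not counted. The ratios were 0.32, 0.31, 0.60 and 0.38, and the fitted value of 0.39 ± 0.10 (1.31-fold; 95% interval 0.14 to 0.65) did not pass (limma adjusted p = 0.181). This probe was dim, and its other probe was not well above background in any channel. With the scanner software's own log ratios the Ifih1 value was 0.98 (limma adjusted p = 0.313). Dhx58, the LGP2 helicase that modulates MDA5 signalling, stood at 0.36, 0.13 and 0.14 in the clones and 0.20 in the pool, with a fitted value of 0.21 ± 0.10. Eif2ak2, the kinase PKR that halts translation on binding double-stranded RNA, stood at 0.22, 0.36 and 0.10 in the clones and 0.19 in the pool, with a fitted value of 0.21 ± 0.10. Neither passed (limma adjusted p = 0.380 and 0.375). Ddx58, which encodes RIG-I, the sensor of RNA with a triphosphate end, showed no common direction, with -0.03, -0.19 and -0.04 in the clones and 0.26 in the pool. Trim25, a ubiquitin ligase for RIG-I, stood at 0.09, -0.05 and -0.06 in the clones and 0.06 in the pool. Their fitted values were 0.09 ± 0.09 for Ddx58 and 0.03 ± 0.09 for Trim25. With the scanner ratios the median of the 5 sensors was 0.36.

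**Figure D2:**
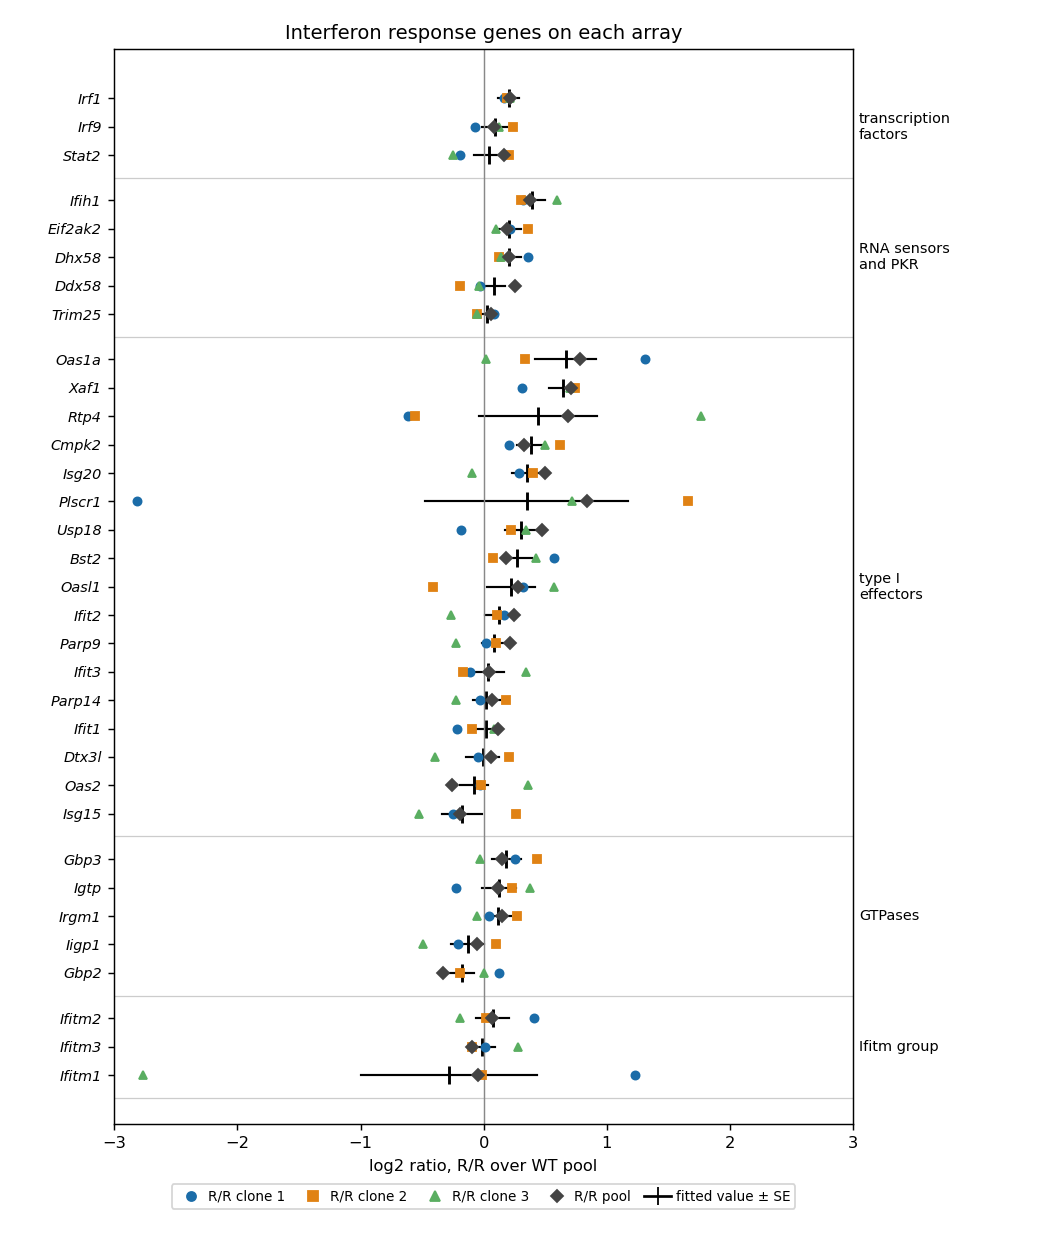
Log2 ratio of R/R over WT (horizontal axis) of each of the 33 members tested, grouped by role. Coloured symbols are the 4 arrays, and black ticks with bars are the fitted value ± SE; most members keep all arrays near 0, while Plscr1 spans -2.82 in clone 1 (R/R channel not well above background) to 1.66 in clone 2 and Ifitm1 1.23 in clone 1 to -2.77 in clone 3.

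Among the type I effectors, 17 of 21 were tested, 14 had fitted values above 0 and 3 below, and the median was 0.22. That median was 0.10 without clone 2, 0.13 without clone 3, 0.11 with the clones alone, 0.10 with no dye term and 0.13 with no filter. Those above 0 on every array were Oas1a, Xaf1, Cmpk2 and Bst2. Xaf1, a partner and antagonist of the apoptosis inhibitor XIAP, had the smallest p of all members. Its channel levels were 7.93, 8.47, 8.31 and 8.26 in R/R clones 1, 2, 3 and the pool, against 7.62, 7.72, 7.61 and 7.55 in WT. The channels did not overlap, though those of WT are repeated readings of 1 pool. Those of Cmpk2 and Bst2 did not overlap either, and the share of all genes without overlap was not counted. The ratios were 0.31 in clone 1, 0.74 in clone 2, 0.70 in clone 3 and 0.71 in the pool. The fitted value was 0.65 ± 0.12 (1.57-fold; 95% interval 0.35 to 0.94; limma adjusted p = 0.108), and its other probe was dim in all but 1 channel and read -0.02. Cmpk2, a mitochondrial nucleotide kinase, stood at 0.21, 0.62 and 0.50 in the clones and 0.33 in the pool, and its fitted value was 0.38 ± 0.11 (limma adjusted p = 0.216). Its WT channel on the array of clone 2 was not well above background, and with the scanner ratios the value was 1.34 (limma adjusted p = 0.219). A second Cmpk2 probe was well above background in 1 of 4 WT channels and gives no firm value. Bst2, the tetherin protein that holds budding virions at the cell surface, stood at 0.58, 0.08 and 0.42 in the clones and 0.18 in the pool, with a fitted value of 0.27 ± 0.12. Isg20, an interferon-induced exonuclease, was above 0 in clone 1 (0.29), clone 2 (0.40) and the pool (0.50) and stood at -0.09 in clone 3. Its fitted value was 0.35 ± 0.12 (limma adjusted p = 0.274), and its other probe, at 0.29, was above 0 on all 4 arrays.

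Isg15 and the Ifit genes, the most used readouts of type I signalling, did not share a direction. Isg15, a ubiquitin-like protein that is attached to other proteins, read 8.90, 9.57, 8.72 and 9.18 in R/R clones 1, 2, 3 and the pool, against 9.14, 9.31, 9.24 and 9.36 in WT, so clone 2 alone lay above the WT channel of its array. Its ratios were -0.25, 0.26, -0.52 and -0.19, and the fitted value was -0.18 ± 0.16 (limma adjusted p = 0.628), -0.29 without clone 2 and -0.09 without clone 3. A second, dimmer Isg15 probe gave -0.02. Usp18, the protease that removes ISG15 and dampens the type I receptor, stood at -0.19, 0.22 and 0.34 in the clones and 0.48 in the pool, with a fitted value of 0.30 ± 0.13. With the scanner ratios it was 0.82. Ifit1, Ifit2 and Ifit3, which bind viral RNA or each other, had fitted values of 0.02 ± 0.10, 0.13 ± 0.12 and 0.03 ± 0.13. Ifit1 stood at -0.21, -0.09 and 0.08 in the clones and 0.11 in the pool, and its R/R channel of clone 1 was not well above background. Ifit2 stood at 0.17, 0.11 and -0.27 in the clones and 0.25 in the pool. Clone 3 was the lowest for Ifit2 and, at 0.35, the highest for Ifit3, which stood at -0.11 in clone 1, -0.17 in clone 2 and 0.04 in the pool.

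The remaining enzymes of the effector group also lay on both sides of 0. Oas2, a synthetase of the oligoadenylates that activate RNase L, stood at -0.03, -0.02 and 0.36 in the clones and -0.26 in the pool, with a fitted value of -0.08 ± 0.12. With the scanner ratios Oas2 was -0.36. Oasl1, a relative known in mice to limit translation of Irf7, stood at 0.32, -0.41 and 0.57 in the clones and 0.28 in the pool, with a fitted value of 0.22 ± 0.20. Its scanner value was 0.50. Parp9 and Dtx3l encode an ADP-ribosylation and ubiquitination complex, and Parp14 a related ADP-ribosyltransferase. All 3 were lowest in clone 3, at -0.22 for Parp9, -0.40 for Dtx3l and -0.23 for Parp14. In clone 2 they stood at 0.10, 0.20 and 0.18, in clone 1 at 0.02, -0.05 and -0.03, and in the pool at 0.21, 0.06 and 0.07. The fitted values were 0.09 ± 0.10 for Parp9, -0.01 ± 0.13 for Dtx3l and 0.02 ± 0.11 for Parp14. A second Dtx3l probe gave 0.09, with 0.27, -0.11 and -0.19 in the clones. Oasl2, Rsad2 (the antiviral enzyme viperin), Ifi44 and Cxcl10 (a chemokine for activated T cells) were too dim to test. Rsad2 and Cxcl10 reached that mark in 0 of 4 R/R and 0 of 4 WT channels, Oasl2 in 1 R/R channel, that of clone 3, and 0 WT channels, and Ifi44 in 1 of each, both on the array of clone 1.

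The clones lay far apart for 4 members. The range over the 3 clones exceeded 1 on the log2 scale for Plscr1, Ifitm1, Rtp4 and Oas1a, 4 of 33 members (12.1%) against 5.04% of all genes, and the median range was 0.43 in the members against 0.32. Of the 20045 genes, 11 had a wider measured range than Ifitm1, 85 than Rtp4 and 523 than Oas1a. The range of Plscr1 rests on a clone 1 channel that was not well above background and is given no rank. The clones have 1 array each, so no test was possible for these differences.

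Plscr1, a phospholipid scramblase induced by interferon, was lowest in clone 1 and high in the other R/R RNAs. On the normalised log2 scale it read 6.09 in clone 1, 10.73 in clone 2, 9.86 in clone 3 and 9.96 in the R/R pool, against 8.91, 9.07, 9.14 and 9.11 in the WT channels of the same arrays. The R/R channel of clone 1 was not well above background, and WT was there at least 6.82-fold higher, a bound set by the lowest signal called above background. In clone 2 the R/R level was 3.17-fold that of WT, in clone 3 1.65-fold and in the pool 1.79-fold. The other Plscr1 probe gave the same order, with -2.45, 1.69 and 0.96 in the clones and 1.18 in the pool, and at least 4.84-fold in favour of WT in clone 1. The fitted value over all arrays was 0.35 ± 0.82 (95% interval -1.71 to 2.41; limma adjusted p = 0.863). It moved with each clone left out, to 1.02 without clone 1 (limma adjusted p = 0.207), -0.10 without clone 2 and 0.13 without clone 3.

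Ifitm1, a small membrane protein that restricts viral entry and is found on lymphoid precursors, was split the other way. Its R/R levels were 14.87 in clone 1, 13.68 in clone 2, 10.86 in clone 3 and 13.73 in the R/R pool, against 13.64, 13.70, 13.63 and 13.78 in WT. Clone 1 was 2.35-fold above WT, clone 2 and the pool lay within 0.05 of 0 on the log2 scale, and in clone 3 WT was 6.80-fold higher. The fitted value was -0.28 ± 0.71 (limma adjusted p = 0.874), and without clone 3 it was 0.28. Of the 5 macrophage and dendritic markers tested, Itgam (-0.42, 0.26 and -0.98 in the clones), Siglech (-0.57, 0.29 and -0.98) and Csf1r (-0.18, 0.11 and -0.26) were also lowest in clone 3 but highest in clone 2. Lyz2 (0.42, -0.24 and 0.30) and Bst1 (0.38, -0.13 and 0.10) were highest in clone 1, as Ifitm1 was, and lowest in clone 2; their part in the Ifitm1 values was not tested. The other 2 Ifitm genes had narrower ranges, 0.61 and 0.38. Ifitm2 stood at 0.41, 0.02 and -0.20 in the clones and 0.07 in the pool, with a fitted value of 0.07 ± 0.14. Ifitm3, read by 10 spots per array and the member best known for blocking influenza virus, stood at 0.01, -0.09 and 0.28 in the clones and -0.09 in the pool, with a fitted value of -0.01 ± 0.11. Of the 3 Ifitm genes, 1 had a fitted value above 0, and their median was -0.01 (0.14 without clone 3).

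Rtp4, an interferon-induced chaperone of membrane receptors, was high in clone 3 alone among the clones. It read 6.67, 6.65, 8.99 and 7.64 in R/R clones 1, 2, 3 and the pool, against 7.29, 7.20, 7.23 and 6.96 in WT. Clone 3 was 3.40-fold above WT and the pool 1.61-fold, while clones 1 and 2 lay at -0.62 and -0.55 on the log2 scale. The fitted value of 0.44 ± 0.48 (limma adjusted p = 0.691) was 0.05 without clone 3. Of the 2 T and NK markers tested, Klrb1c was also highest in clone 3 (-0.50, -0.23 and 1.52 in the clones) and Cd3e was highest in clone 1 (0.36, 0.15 and 0.11), while 4 of the 7 were above background in no channel; the part of other cells in this value was not tested. Oas1a, another oligoadenylate synthetase, was high in clone 1. It read 10.32, 9.47, 9.04 and 9.71 in R/R clones 1, 2, 3 and the pool, against 9.01, 9.14, 9.02 and 8.93 in WT, and clone 3 overlapped the WT channels. Its fitted value was 0.67 ± 0.25 (1.59-fold; limma adjusted p = 0.294), and its other probe gave 0.95, 0.51 and 0.13 in the clones and 0.42 in the pool. The Oas1, Ifit3, Ifitm and immunity-related GTPase genes have close copies in the mouse genome, so which copy a probe reads is uncertain.

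**Figure D3:**
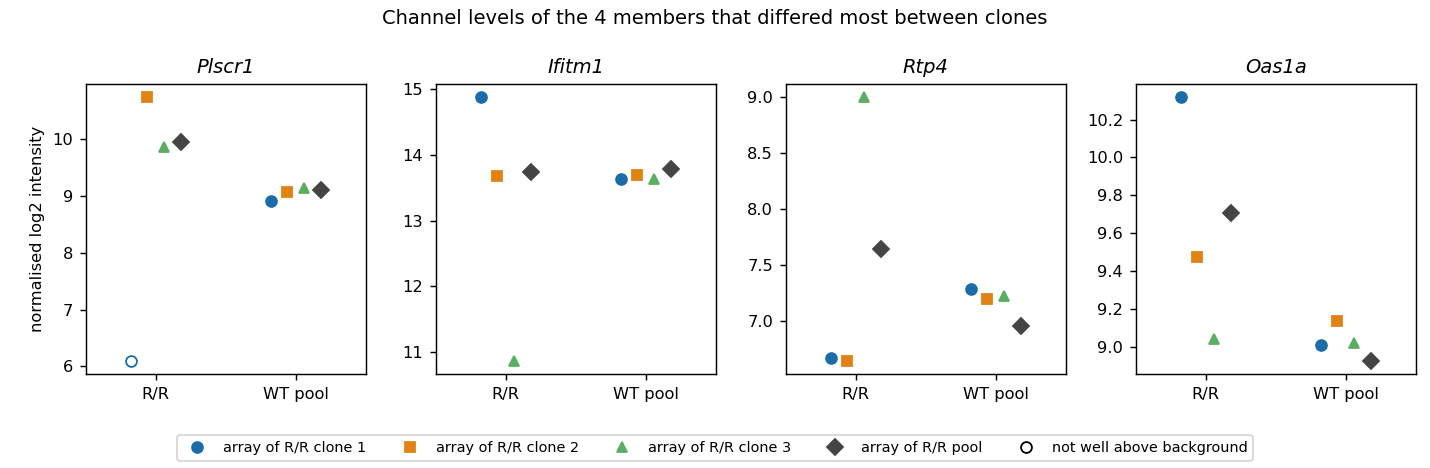
Normalised log2 intensity (vertical axes, a separate scale per gene) of the 4 members whose clones differed by more than 1, with the R/R channel left and the WT pool channel right in each panel. Symbols are the 4 arrays and the open symbol is not well above background; the WT readings stay together (8.91 to 9.14 for Plscr1), while the R/R clones spread from 6.09 to 10.73 for Plscr1 and from 10.86 to 14.87 for Ifitm1.

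The clone that stood out differed from gene to gene. Clone 1 held the lowest value for Plscr1 and the highest for Oas1a and Ifitm1, and clone 3 the lowest for Ifitm1 and the highest for Rtp4. In no clone did all members lie on 1 side of 0. Of the 33 members tested, 19 were above 0 in clone 1, 23 in clone 2, 19 in clone 3 and 27 in the pool. Of all 20045 genes tested, 9695, 10459, 9349 and 9257 were above 0 on the same arrays. In the pool no member lay above 1 or below -1 on its brightest probe, and the extremes were Plscr1 at 0.84 and Gbp2 at -0.33. The other Plscr1 probe stood at 1.18 there. The pool value was set beside the log2 of the mean of the clones' linear ratios. That mean was 0.73 for Plscr1 (pool 0.84), 0.66 for Rtp4 (pool 0.69), 0.66 for Oas1a (pool 0.78) and 0.22 for Ifitm1 (pool -0.05). Over the members the median distance between the 2 was 0.12, and over all genes 0.15. The members' median fitted value was itself 0.12. The largest distance among the members was 0.38, for Oas2 (mean 0.12, pool -0.26).

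**Figure D4:**
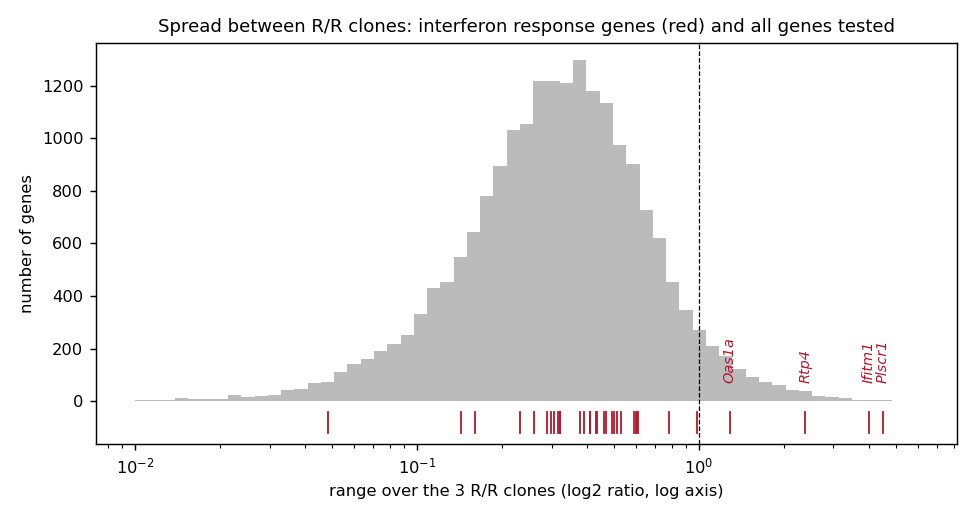
Range of the log2 ratio over the 3 R/R clones (horizontal log axis) for all 20045 genes tested (grey, number of genes) and for the 33 members (red marks below). The dashed line marks a range of 1; Oas1a, Rtp4, Ifitm1 and Plscr1 lie to its right (Plscr1 with a clone 1 channel not well above background) and Irf1, at 0.05, lies furthest left.

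The GTPases, which type II interferon induces strongly in macrophages, lay on both sides of 0. Of 7 listed, 5 were tested, 3 had fitted values above 0 and 2 below, none was on 1 side of 0 on all arrays, and the median was 0.12 (0.07 without clone 2 and 0.06 without clone 3). Gbp3, a guanylate-binding protein, had a fitted value of 0.18 ± 0.12 and stood at 0.26, 0.43 and -0.03 in the clones and 0.15 in the pool. Gbp2, its relative, stood at 0.12, -0.19 and 0.01 in the clones and -0.33 in the pool, with a fitted value of -0.18 ± 0.10 (limma adjusted p = 0.456). Among the immunity-related GTPases, which guard phagosomes and vacuoles, Igtp had a fitted value of 0.12 ± 0.14, Irgm1 0.12 ± 0.10 and Iigp1 -0.13 ± 0.13. Igtp, read by 10 spots per array, stood at -0.23, 0.23 and 0.38 in the clones and 0.12 in the pool. Irgm1 stood at 0.05, 0.27 and -0.05 in the clones and 0.15 in the pool, and its other probe was above 0 on all 4 arrays with a fitted value of 0.21. Iigp1 stood at -0.20, 0.10 and -0.49 in the clones and -0.06 in the pool.

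The values of members with and without an ISRE core in the promoter window overlapped. The 15 tested members with a core had a median fitted value of 0.09, from -0.18 (Isg15) to 0.67 (Oas1a), with 12 above 0. The 11 tested members with a promoter entry but no core had a median of 0.20, from -0.28 (Ifitm1) to 0.65 (Xaf1), with 9 above 0. The median range over the clones was 0.46 with a core and 0.43 without. Of the 4 members whose clones lay far apart, Oas1a had 2 overlapping ISRE cores and a GAS match, Plscr1 a GAS match, Ifitm1 no match of either kind, and Rtp4 no promoter entry.

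Of 63 further interferon-inducible genes, 52 were tested, with 37 fitted values above 0 and 15 below, a median of 0.12, and 0 called in either direction by limma at an adjusted p under 0.05. At an unadjusted p under 0.05, 16 were higher (30.8%, against 7.27% of all genes) and 3 lower (5.77%, against 8.1%). On all 4 arrays 13 of 52 were above 0 (against 14.6%) and 5 below (9.62%, against 16.2%). The list was chosen with earlier results of these data known, so these shares are no independent support. The 4 with the smallest p were all above 0. Ifi27l2a, a small interferon-induced membrane protein, stood at 0.94, 1.18 and 1.84 in the clones and 1.36 in the pool, with a fitted value of 1.34 ± 0.18 (limma adjusted p = 0.0615). Gbp4, a further guanylate-binding protein, stood at 0.63, 1.02 and 0.66 in the clones and 0.78 in the pool, with a fitted value of 0.78 ± 0.11 (limma adjusted p = 0.0714). Ifi35 had 0.59 ± 0.10 (limma adjusted p = 0.0897) and Trim30a 0.58 ± 0.10 (limma adjusted p = 0.0943). These 4 had smaller p-values than any of the 33 members tested, and none passed.

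Ligands, receptors and signalling genes were the remaining list. Of 36 listed, 27 were tested, 8 had fitted values above 0 and 19 below, the median was -0.12, and limma called 0 higher and 0 lower. At an unadjusted p under 0.05 there were 0 higher, against 7.27% of all genes, and 6 lower (22.2%, against 8.1%). On all 4 arrays 1 was above 0 (3.7%, against 14.6%) and 9 below (33.3%, against 16.2%). Earlier results of these data were known when this list was chosen, so its shares are no independent support. The 4 with the smallest p were Mavs, the mitochondrial adaptor of RIG-I and MDA5 (-0.43 ± 0.09, limma adjusted p = 0.147), Jak1, a kinase of every interferon receptor (-0.39 ± 0.09, limma adjusted p = 0.150), Cgas, the sensor of cytosolic DNA (-0.66 ± 0.22, limma adjusted p = 0.251), and Ifngr2, a chain of the interferon gamma receptor (-0.25 ± 0.09, limma adjusted p = 0.287). Jak1 stood at -0.41, -0.50 and -0.52 in the clones and -0.31 in the pool. Cgas varied with the clone, at -1.16, -0.62 and 0.00 in clones 1, 2 and 3 and -0.73 in the pool, and a second bright probe gave -0.12. The interferon genes on the list, Ifnb1, Ifna2, Ifna4, Ifne, Ifnk and Ifng, were well above background in 0 R/R channels, and in WT the exceptions were 1 channel each for Ifna2 and Ifnk.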

How the data were processed

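RNA of 3 R/R clones and 1 R/R pool was hybridised against 1 WT pool on 4 two-colour arrays. Per the labels, 100 ng of RNA was labelled and RNA integrity numbers were 9.8 to 10.0. Per the file headers, the intensity of each spot and of the background around it is the median over pixels, uncorrected, as Agilent Feature Extraction 11.5.1.1 wrote it. Each log10 ratio, per the file headers, sets processed Cy5 over Cy3. The authors also deposited log2 ratios of R/R over WT, with no account of how they were made. Row by row, their absolute correlation with the present ratios was 0.989 to 0.997 and their column medians were 0, 0.004, -0.0011 and -0.0014; they gave counts alone.

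With limma 3.58.1 in R 4.3.3, background was corrected by normexp with an offset of 50, followed by loess within each array, in which control spots had weight 0. Per array, 210 to 265 outlier spots were left out, spots of a probe averaged, and the dye-swapped array's sign turned. Of 55681 probes 27656 had a gene symbol through their RefSeq accession (GRCm38.p6 table) and 28025 had none here. A probe passed if, on at least 3 of 4 arrays, either its R/R or its WT signal was well above background (26439 probes), and the brightest per gene gave 20045 genes, 12296 with a symbol. Each was fitted with genotype and dye, two-sided, with Benjamini-Hochberg adjustment over all genes. The clones gave 2 residual degrees of freedom. After limma drew each gene's variance toward that of all genes, the median degrees of freedom were 5.54. The fit was tested on simulated data.

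For a channel not above background, a fold written as a lower bound was taken against the higher of the lowest signal called well above background and the measured signal; such a bound is open to dye bias, since the dye swap is not balanced. The named genes are all members, and the 4 smallest p of each of 2 further lists. Members, lists and tests were chosen with earlier results of these data known. Alternatives were the scanner ratios, offset 16, median centring, scaling, no filter or a strict one, the mean of probes, the clones alone, no dye term, clones 1 and 2 averaged, an intensity trend, an adjusted p under 0.10, the deposited table and each clone left out.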

Additional observations from a re-analysis of the deposited data

How the results depend on the processing

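Members called stayed at 0 in both directions under the alternatives run on the members, except the fit with no dye term, which called 3 higher; the deposited table was not run on members. Where 33 members were tested, those above 0 ran from 21 (clones alone) to 27 (mean of probes). With no filter they were 30 of 38, and with the strict filter 22 of 29. The median of the members ran from 0.09 to 0.13. Over all genes the calls moved more. Higher and lower calls were 6 and 44 with the scanner ratios, 2 and 28 after median centring, 490 and 650 with no dye term, and 107 and 203 at an adjusted p under 0.10. The strict filter gave 48 lower. Leaving out each clone in turn gave 11 to 88 higher and 47 to 176 lower, with the lowest without clone 1 and the highest without clone 3. The deposited table gave 36 and 85. Of 458 values of single members under the alternatives, 422 kept their direction and side of the threshold, 3 gained a call and 33 turned sign, in 13 genes.

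The values that turned sign were, with the clones alone, Stat2 -0.078, Ddx58 -0.086, Trim25 -0.0063, Ifit1 -0.074, Oas2 0.11, Plscr1 -0.14, Parp9 -0.036, Parp14 -0.025 and Ifitm3 0.067. With no dye term they were Stat2 -0.016, Ddx58 -0.0001, Ifit1 -0.027, Oas2 0.014, Parp14 -0.0017 and Ifitm3 0.027. The scanner ratios turned Trim25 (-0.022), Ifit1 (-0.045) and Dtx3l (0.029), median centring Ifit1 (-0.019) and Ifit3 (-0.029), the mean of probes Dtx3l (0.043), and clones 1 and 2 averaged Parp14 (-0.0039) and Ifitm3 (0.014). With each clone left out in turn, the values ran from -0.026 to 0.089 for Stat2, -0.020 to 0.055 for Ifit1, -0.047 to 0.081 for Ifit3, -0.10 to 1.02 for Plscr1, -0.031 to 0.072 for Parp14, -0.080 to 0.070 for Dtx3l, -0.72 to 0.28 for Ifitm1, -0.010 to 0.14 for Ifitm2 and -0.067 to 0.028 for Ifitm3. The cause of these turns was not tested.

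R/R and WT were compared within each array, as ratios. The R/R clones and the R/R pool were all set against 1 WT pool, so the WT side had no replication. Signal near background limits the dim members, Ifih1, Cmpk2, Ifit1 and Ifit3 among them. The p-values rest on the spread between these 3 clones, drawn toward that of all genes tested, and leave out the spread of WT lines.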

Other observations

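Genes beside the 4 members that separated the clones were read after their values were seen, in the order of the RefSeq gene table, and no test was made. Plod2, a lysyl hydroxylase of collagen and the third tested gene after Plscr1, stood at -1.53, 1.18 and 0.22 in clones 1, 2 and 3 and at 0.63 in the pool, the same order as Plscr1. Between them, Plscr2 stood at -0.86, -0.998 and -0.94 in the clones and -0.62 in the pool, and Plscr4 at -0.58, 0.34 and -0.11 in the clones and -0.11 in the pool. Before Plscr1, the 3 nearest tested genes (Zic4, Zic1 and Morf4l1) had ranges over the clones of 0.10, 0.48 and 0.27.

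Oas1f, beside Oas1a, stood at 0.95, 0.43 and 0.03 in the clones and 0.82 in the pool, close to Oas1a at 1.31, 0.34, 0.02 and 0.78. The genes of the Oas1 family have near-identical copies, and whether the probes read separate transcripts was not tested. St6gal1, a sialyltransferase of B cells just before Rtp4, stood at -1.58, 0.24 and -0.97 in the clones and -0.50 in the pool, an order unlike that of Rtp4. Around Ifitm1, none of the 6 nearest tested genes had a range over the clones above 0.77.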
